A study of Drosophila melanogaster with 2 samples.

Results

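The genes described here are those named for the protein subunits of oxidative phosphorylation in Drosophila melanogaster, read for the presence of Myb at their promoters in the embryo. They were chosen by symbol from the protein-coding genes of the Ensembl annotation of the dm6 build: every symbol beginning with ND-, COX, UQCR, ATPsyn or Sdh, together with RFeSP and Cyt-c1. The rule gave 90 of the 13945 protein-coding genes on the 6 chromosome arms. Of these, 40 belong to complex I, 8 to complex II, 11 to complex III, 16 to complex IV and 15 to complex V. For 20 of the 90 the symbol is that of another member followed by L and sometimes a digit, and these are called duplicates below. The 70 other members include 4 L-suffix genes whose parent gene has a different kind of symbol (COX6AL and COX6AL2, after levy, COX6CL, after cype, and ATPsynepsilonL, after sun). They also include Sdhaf3, an assembly factor of complex II and not a subunit.

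The chromatin came from whole embryos of both sexes, 0 to 24 h after laying, of a transgenic line that stably expresses Myb with GFP at its C terminus, and was precipitated with an antibody to GFP. The series holds 1 group of 2 biological replicates from this line and no second genotype, treatment or stage. Embryos without the transgene and an input library were not analysed here, so there is no measure of background beside these values, and each is an average over all cells and ages in the collection. Each replicate had a complete list of 30000 peaks, as did the pooled alignments, and the called set, which the submitters selected by the irreproducible discovery rate, held 6100. Complete means the whole list as deposited, and each list stops at 30000 entries. The pooled list is labelled as peaks and background given as input to that selection. An uncalled peak below is an entry of such a list and may be background. A peak's signal is the value deposited by the authors from their peak caller. Its scale is not stated and the depth behind it is unknown, so it is ranked only within a list. Where signals of the 2 replicates stand side by side, they are raw values without adjustment for depth. The called peaks had a median signal of 183 and a range of 93.9 to 7447.

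Oxidative phosphorylation takes place in the inner mitochondrial membrane. Complexes I and II pass electrons from NADH and succinate to ubiquinone, complex III passes them on to cytochrome c, complex IV passes them to oxygen, and complex V, the ATP synthase, uses the proton gradient that this builds to make ATP. Most subunits are encoded in the nucleus, and in Drosophila many of them have a duplicated copy in the genome that is transcribed mainly in the testis. Myb binds DNA as part of the Myb-MuvB complex, which is best known for its part in the expression of cell-cycle genes, and the MuvB core of this complex binds the cell-cycle homology region (CHR).

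A gene counts as bound here if the called set has a summit no more than 500 bp from an annotated transcription start site (TSS) of that gene. The sequences around 7 such summits are printed to show what lies under the strongest peaks of complexes I and III, under the only bound duplicate (COX7AL2), and under bound subunit genes of complexes IV and V. Each runs 5′ to 3′ on the strand of the gene, from 60 bp before to 60 bp after the summit, and is read from the RefSeq sequence of the dm6 build. Capitals mark 8 words on either strand. They include the Myb site core AACGG, the DNA replication-related element (DRE) TATCGATA, the core promoter word motif 1 GGTCACACT and the E-box CAGCTG. The others are the TATA box TATAAA, the CHR forms TTTGAA and TTCGAA, and TTANNTAA (N for any base), searched for the nuclear respiratory gene element. The windows are RFeSP at chr2L:1614215-1614335 (minus strand), ND-B8 at chr2L:4454473-4454593 (plus strand), ND-39 at chr3L:20495253-20495373 (plus strand), ND-15 at chr2L:114575-114695 (plus strand), COX7AL2 at chr2L:2193419-2193539 (minus strand), COX6B at chrX:19744317-19744437 (minus strand), ATPsynC at chr3R:31219616-31219736 (minus strand).
RFeSP: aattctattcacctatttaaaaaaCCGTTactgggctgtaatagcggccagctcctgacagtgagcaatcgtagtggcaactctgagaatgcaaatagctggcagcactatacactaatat
ND-B8: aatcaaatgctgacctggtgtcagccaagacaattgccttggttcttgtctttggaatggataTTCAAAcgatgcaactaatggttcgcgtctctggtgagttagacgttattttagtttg
ND-39: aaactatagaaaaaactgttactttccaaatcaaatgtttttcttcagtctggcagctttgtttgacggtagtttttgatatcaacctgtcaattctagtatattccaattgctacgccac
ND-15: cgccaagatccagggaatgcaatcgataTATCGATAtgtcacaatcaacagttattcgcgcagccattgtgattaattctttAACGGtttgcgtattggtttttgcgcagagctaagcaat
COX7AL2: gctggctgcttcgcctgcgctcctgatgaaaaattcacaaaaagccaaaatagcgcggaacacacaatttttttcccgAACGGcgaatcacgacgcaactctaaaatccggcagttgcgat
COX6B: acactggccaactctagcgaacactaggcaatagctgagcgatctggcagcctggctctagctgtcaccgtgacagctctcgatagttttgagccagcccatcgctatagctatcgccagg
ATPsynC: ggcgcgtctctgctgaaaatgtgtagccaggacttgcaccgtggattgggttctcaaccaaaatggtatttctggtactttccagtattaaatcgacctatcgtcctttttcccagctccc
The RFeSP and COX7AL2 windows each hold 1 Myb site core and no other marked word, and ND-B8 holds a CHR form just downstream of the summit. ND-15 pairs a DRE with a Myb site core. The ND-39, COX6B and ATPsynC windows hold none of the 8 words, so a strong peak such as that of ND-39 can lie over a sequence without them. The wider word TTNGAA, which is counted below but not marked here, has 2 matches within 50 bp of the ND-39 summit. These matches describe letters and not sites of binding.

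Myb-GFP was found at the promoters of 46 of the 90 members, or 51.1% (95% exact binomial interval 40.3 to 61.8), where 35.6% of all protein-coding genes were bound. All members have a given name, and among the 7848 named protein-coding genes alone 44.1% were bound, which lies inside that interval. The duplicates accounted for nearly none of the 46 bound members. Of the 70 other members 45 were bound, or 64.3% (51.9 to 75.4), and of the 20 duplicates 1 was, or 5% (0.127 to 24.9). The intervals cover counting of genes only, and no test of these shares was run because the members were chosen by name. Removing the 4 L-suffix genes with differently named parents left 45 of 66 other members bound, or 68.2%. Of the 18 like-named parents of the duplicates, 11 were bound. With only the 3050 stronger called peaks, 28 of the other members were bound and 21.6% of all genes.

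The same order held in lists that are not limited to the called peaks. In the complete pooled list, in which 59.1% of all protein-coding genes had a summit within 500 bp of a TSS, 62 of the 70 other members and 6 of the 20 duplicates did. In the complete list of replicate 1 the counts were 63 and 3 against 59.1% of all genes, and in that of replicate 2 they were 60 and 5 against 58.2%. When each replicate's list was limited to its 6100 strongest peaks, 45 other members and 2 duplicates had a summit in replicate 1, where 36.5% of all genes did, and 42 and 1 in replicate 2, where 33.9% did. Of the members, 19 had a summit in no list at all: 14 duplicates, the subunits ND-AGGG, ND-B12 and ND-B14.7, and the copies COX6AL and COX6CL. Among all protein-coding genes, 4876 had none.

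**Figure D1:**
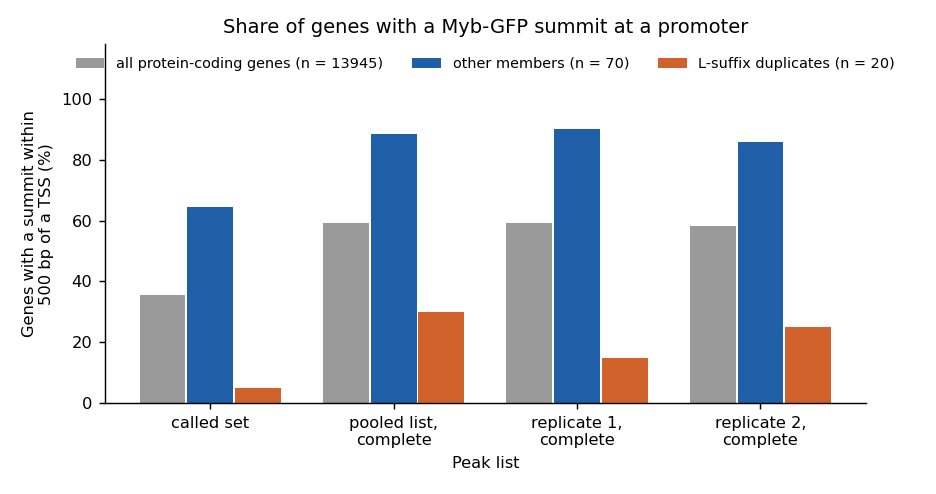
Percent of genes with a Myb-GFP summit within 500 bp of a TSS (vertical axis) in 4 peak lists (horizontal axis), for all 13945 protein-coding genes (grey), the 70 other members (blue) and the 20 L-suffix duplicates (orange). In the called set the 3 shares are 35.6%, 64.3% and 5%, and the blue bar is the highest and the orange bar the lowest in all 4 lists.

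Complex I, the NADH dehydrogenase, had 24 of 40 members bound (60%, against the 35.6% of all genes), all of them among its 34 other members and none among its 6 duplicates. The strongest was ND-B8, an accessory subunit (FBgn0040705), whose called peak at chr2L:4454256-4454775 had a signal of 2465, rank 67 of the called set, with 1288 in replicate 1 and 1174 in replicate 2. ND-39, another accessory subunit, followed with a called signal of 1729 and replicate signals of 914 and 816. ND-15, also accessory, had 1727, with 939 and 781. These 3 stood well above the median of 233 over the bound complex I genes, and their signals were close to each other in the replicates. Their summits lay 93, 34 and 91 bp upstream of the nearest TSS of the gene. For ND-39 that is not its outermost TSS. The divergent neighbour Secp43 had a TSS nearer to the ND-B8 summit than that of ND-B8.

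ND-B14.5A (1452), ND-B18 (1079), ND-B14.5B (667), ND-MWFE (507), ND-ASHI (363) and ND-B22 (299) came next by called signal, all accessory subunits, mostly of the membrane arm. Among the catalytic core subunits of the matrix arm, 4 were bound and 3 were not. ND-51, which binds NADH, had a called signal of 262, with 122 in replicate 1 and 141 in replicate 2. ND-24, its iron-sulfur partner, had 244, with 120 and 124. ND-23 had 146 and ND-20 had 106, both at the weaker end of the called set, and for ND-20 the replicate signals were 56.1 and 49.6. For ND-51 and ND-23 a TSS of the neighbour, CG13994 and spn-E, was nearer to the summit than the gene's own. ND-75, ND-49 and ND-30 were not bound, and their pooled signals of 82.4, 53.0 and 52.4 all lay under the lowest called value. ND-49 lies on chromosome 4, where 20% of the 80 protein-coding genes were bound.

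The other bound complex I genes ran from 234 (ND-19) through ND-18, ND-42, ND-B17, ND-PDSW, ND-B15, ND-SGDH, ND-ACP, ND-MNLL and ND-13A to 113 (ND-13B). Besides the core subunits named above, ND-B17.2 (pooled signal 80.8), ND-B14 (41.9) and ND-B16.6 (38.7) had only uncalled peaks, ND-MLRQ had one in replicate 1 alone (24.7), and ND-AGGG, ND-B12 and ND-B14.7 had none. None of the 6 duplicates, ND-20L, ND-24L, ND-49L, ND-51L1, ND-51L2 and ND-B14.5AL, had a summit in any of the lists.

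In complex II, the succinate dehydrogenase that also serves the citric acid cycle, 4 of 8 members were bound (50%, against 35.6% of all genes). SdhB, the iron-sulfur subunit (FBgn0014028), had a called signal of 1676, with 930 in replicate 1 and 745 in replicate 2. SdhA, the flavoprotein that holds the catalytic site, had 236, with 110 and 124, and SdhD, a membrane anchor, had 194, with 73.8 and 111. SdhB was the highest member of its complex in both replicates, while SdhA and SdhD lay near the middle of the called set. The assembly factor Sdhaf3 was bound at 126. SdhC, the other anchor, had a pooled signal of 60.9, with 40.6 and 21.2, and was not called. SdhAL, SdhBL and SdhCL had no summit within 500 bp in any list, although a called summit with a signal of 195 lay 792 bp upstream of SdhBL.

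Complex III had 4 of 11 members bound, or 36.4%, which is near the 35.6% of all genes, and also the strongest peak of the whole group. Of its 8 members that are not duplicates 4 were bound (50%). RFeSP, the Rieske iron-sulfur protein (FBgn0021906), lay under a peak at chr2L:1613964-1614575 with a called signal of 4945, rank 7 of the 6100, and 2642 and 2315 in replicates 1 and 2. Its summit was 115 bp upstream of the only annotated TSS, and no other gene had a TSS within 500 bp of it. UQCR-14 had a called signal of 551, with 290 and 259.

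The RFeSP signal was the highest of the group in both replicates, and UQCR-14 came second within the complex in both. UQCR-C2, a core protein of the complex, had a called signal of 281, with 174 and 103, and UQCR-Q had 267. The remaining 4 subunits outside the duplicates had uncalled peaks. Pooled signal was 64.3 at UQCR-6.4, 54.6 at Cyt-c1 (the cytochrome that hands electrons to cytochrome c), 34.7 at UQCR-11 and 30.7 at UQCR-C1. Cyt-c1 had a called summit farther off, 756 bp upstream, with a signal of 95.9. Of the duplicates, UQCR-6.4L (53.0) and UQCR-11L (28.6) had uncalled pooled peaks and UQCR-14L had none.

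Complex IV, the cytochrome c oxidase, had 6 of 16 members bound, or 37.5%, again near the 35.6% of all genes. One of the 6 was the duplicate described below, and 5 of the 11 members that are not duplicates were bound (45.5%). Those 11 include COX6AL, COX6AL2 and COX6CL, the copies of levy and cype, and none of these copies was bound. The 45.5% is therefore not the share of the regular subunits alone. COX5A had a called signal of 456, with 202 in replicate 1 and 247 in replicate 2, and COX6B had 349, with 174 and 176. COX7B (131), COX7C (121) and COX7A (95.5) were weaker, and COX7A at rank 6007 was the weakest bound member of the group. Its replicate signals, 29.5 and 63.0, were also the most unequal in favour of replicate 2. For COX7C the replicate signals were 51.4 and 77.9.

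COX5B, COX8 and COX4 were not called, with pooled signals of 82.2, 56.6 and 33.2. The duplicates COX7AL (87.4), COX4L (32.6) and COX5BL (25.7) had uncalled pooled peaks, and COX7CL had none. COX6AL2 had a summit in replicate 2 alone (17.7), and COX6AL and COX6CL had none.

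Complex V, the ATP synthase, had 8 of 15 members bound (53.3%, against 35.6% of all genes) and the lowest ceiling, with no signal above 360. ATPsynF had 360 (172 and 185 in the replicates), ATPsynE had 241 (140 and 104) and ATPsynC, the subunit of the membrane rotor ring, had 202 (90.3 and 104). ATPsynO (187), ATPsynB (184), ATPsynD (129), ATPsynCF6 (108) and ATPsynG (106) followed. All 8 encode parts of the membrane sector or of the stalk that holds it to the head.

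The 3 subunits of the catalytic head and central stalk that carry the ATPsyn symbol were not called. ATPsynbeta, the catalytic subunit, came closest with a pooled signal of 92.7 at rank 6176, with 59.8 and 35.0 in the replicates. ATPsynbeta and ND-49 are the only members on chromosome 4. Of the 80 protein-coding genes there 20% were bound, and 80% had a summit in the complete pooled list. The part of the chromosome was not tested. ATPsyngamma, the rotor shaft, had 66.0, and ATPsyndelta had a summit in replicate 1 alone (24.0). The remaining head and stalk subunits carry other names and were bound: blw, the alpha subunit, at 275, and sun, the epsilon subunit, at 156. ATPsynepsilonL had an uncalled pooled peak (26.5), and the duplicates ATPsynCF6L, ATPsynGL and ATPsynbetaL had no summit in any list.

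**Figure D2:**
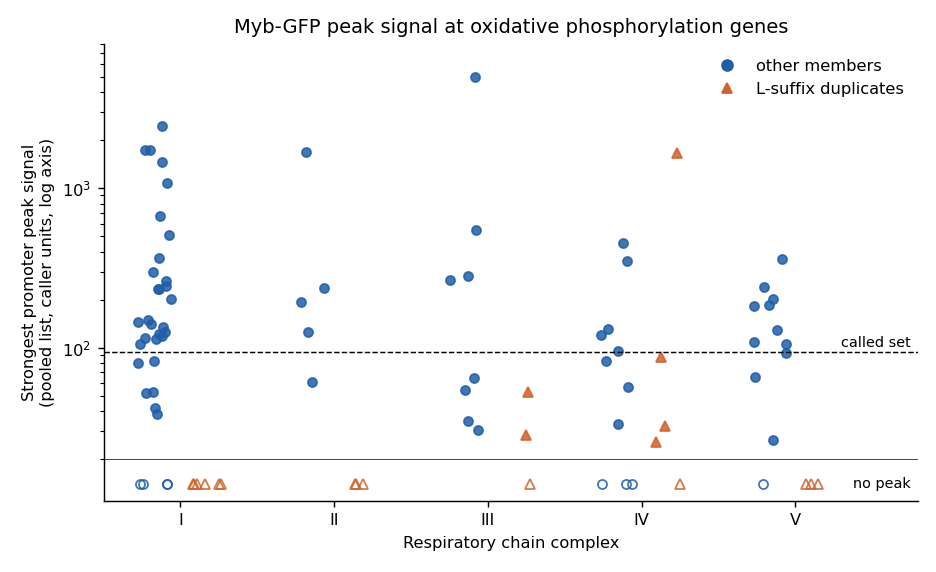
Signal of the strongest Myb-GFP peak within 500 bp of a TSS in the complete pooled list (vertical log axis, units of the peak caller) for each of the 90 members by complex (horizontal axis), with other members as blue circles and L-suffix duplicates as orange triangles. The dashed line is the lowest signal of the called set, open symbols at the bottom have no pooled peak, and the only triangle above the line is COX7AL2 at 1651.

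Across the complexes, the median called signal of bound members was 233 in complex I, 215 in complex II, 416 in complex III, 240 in complex IV and 185 in complex V. The complex IV value includes the duplicate COX7AL2, and without it the median over the 5 other bound genes of complex IV was 131, the lowest of the 5 complexes. Over all 46 it was 233, close to the 224 over all bound protein-coding genes. The median member peak was thus about as strong as that of other bound genes, and a few genes (RFeSP, ND-B8, ND-39, ND-15, SdhB) formed a long upper tail. On either side of the called threshold stood COX7A (95.5), ND-20 (106) and ATPsynG (106) inside it, and ATPsynbeta (92.7), COX7AL (87.4) and ND-75 (82.4) outside it.

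The 11 bound parents of duplicates were ND-20, ND-24, ND-51, ND-B14.5A, SdhA, SdhB, UQCR-14, COX7A, COX7C, ATPsynCF6 and ATPsynG, with called signals from 95.5 to 1676. The 7 unbound parents, ND-49, SdhC, UQCR-6.4, UQCR-11, COX4, COX5B and ATPsynbeta, all had an uncalled pooled peak, from 33.2 to 92.7. In replicate 1 the signal of ND-49 was 27.5, and in replicate 2 it was 28.0. COX5B had 36.2 and 38.0, UQCR-6.4 had 33.1 and 30.8, while UQCR-11 (19.3) was listed in replicate 1 alone and COX4 (22.1) in replicate 2 alone. For the bound parents not given above, the replicate signals were 818 and 643 at ND-B14.5A, 46.3 and 67.0 at ATPsynCF6, and 39.8 and 63.7 at ATPsynG.

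The bound duplicate was COX7AL2 (FBgn0085201), a copy of the cytochrome c oxidase subunit COX7A, and its peak was much stronger than that of its parent. The called peak at chr2L:2193160-2193786 had a signal of 1651 (rank 149), with 828 in replicate 1 and 822 in replicate 2, against 95.5 for COX7A. The summit lay 469 bp upstream of an internal TSS of the gene and inside the gene, near the edge of the 500 bp window, and no other gene had a TSS within 500 bp. A second called summit (278) lay 314 bp downstream of a TSS of COX7AL2 and within 500 bp of CG10874. At its outermost TSS COX7AL2 had no called summit, so it counts as bound only through the internal starts. With a window of 250 bp no duplicate was bound, where 30.9% of all genes were. The other copy, COX7AL, had 48.8 and 42.6 in the replicates, and its pooled signal of 87.4 was close to the 95.5 of COX7A. COX7AL lies near COX7A on arm 3R, and the called summit nearest to its TSS was 2607 bp away.

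Promoters of 2 bound parents are printed with those of their unbound duplicates as examples of a word that the duplicates lack, the DRE. They were picked after the words were seen, and the counts over all members follow them. Each runs 5′ to 3′ on the gene's strand from 80 bp before to 20 bp after the outermost TSS, read from the RefSeq sequence of dm6, with the same words in capitals. The windows are ND-B14.5A at chrX:2172446-2172545 (plus strand), ND-B14.5AL at chr3L:22606289-22606388 (plus strand), COX7A at chr3R:8341024-8341123 (minus strand), COX7AL at chr3R:8343589-8343688 (plus strand).
ND-B14.5A: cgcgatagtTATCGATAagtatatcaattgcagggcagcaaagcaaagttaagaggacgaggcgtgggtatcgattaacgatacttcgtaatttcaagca
ND-B14.5AL: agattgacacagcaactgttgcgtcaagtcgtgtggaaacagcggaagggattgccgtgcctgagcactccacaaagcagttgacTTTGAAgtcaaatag
COX7A: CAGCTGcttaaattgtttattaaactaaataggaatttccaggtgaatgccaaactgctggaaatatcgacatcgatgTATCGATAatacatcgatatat
COX7AL: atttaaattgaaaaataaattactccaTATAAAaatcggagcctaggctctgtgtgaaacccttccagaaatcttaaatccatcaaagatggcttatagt
Both parents hold a DRE in this window and neither duplicate does. COX7A also holds an E-box at the first base printed. The duplicates hold other words, a CHR form just downstream of the start of ND-B14.5AL and a TATA box upstream of the start of COX7AL.

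Over the wider promoter, from 250 bp before to 50 bp after the outermost TSS, the DRE was present in 9.36% of all protein-coding genes. It was present in 12.9% of the 70 other members and in none of the 20 duplicates. That count of 0 has an approximate upper limit of 15%, which takes in the 9.36%. Among the other members the DRE was held by 17.8% of the 45 that were bound and 4% of the 25 that were not, beside 17.5% of all bound genes. Motif 1, GGTCACACT, was present in 6.05% of all promoters, 21.4% of the other members and 5% of the duplicates. The nuclear respiratory gene element is known in Drosophila from promoters of nuclear-encoded mitochondrial genes. The word searched for it, TTANNTAA, allows any base in its middle and so can match words outside that element. TTANNTAA was present in 23.5%, 37.1% and 10%. Unlike the DRE, it was held by more of the unbound other members (44%) than of the bound ones (33.3%). With 250 bp on both sides of the TSS it was present in 31.1% of all promoters, 64.3% of the other members and 10% of the duplicates.

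The Myb site core AACGG was present in 33.8% of all promoters, 32.9% of the other members and 15% of the duplicates. Among the other members it was held by 40% of the bound and 20% of the unbound, but in a window of 250 bp on both sides of the TSS by 55.6% and 56%. The E-box CAGCTG was present in 17.7% of all promoters, 27.1% of the other members and 10% of the duplicates, and TATAAA in 45.8%, 58.6% and 45%. The word TTNGAA, which takes in the CHR forms and others, was present in 66.3%, 72.9% and 85%, so the duplicates held it most often. Of the narrower CHR forms it contains, TTTGAA was present in 40.7%, 51.4% and 50%, and TTCGAA in 12.9%, 12.9% and 35%. All words were searched on both strands. TTANNTAA and TATAAA can share bases.

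**Figure D3:**
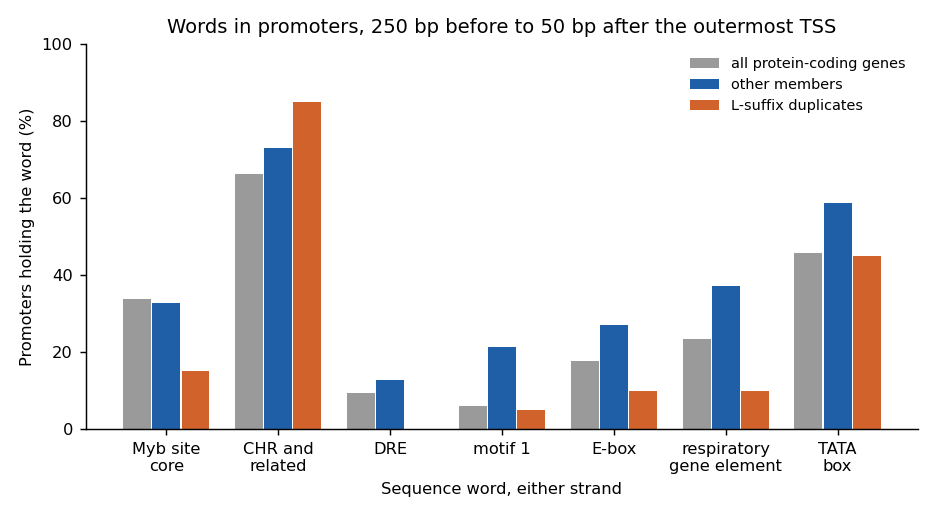
Percent of promoters that hold each word at least once on either strand (vertical axis) for 7 words (horizontal axis), in all protein-coding genes (grey), the 70 other members (blue) and the 20 duplicates (orange). No orange bar stands over the DRE. The blue bar is above the grey by more than 10 percentage points for motif 1, the TATA box and TTANNTAA, labelled respiratory gene element.

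Directly under the summits motif 1 did not set the members apart. Within 50 bp of the strongest called summit, none of the 46 bound members held GGTCACACT, where 5.81% of the 3583 summits of all bound protein-coding genes did. The count of 0 has an approximate upper limit of 6.52%, which takes in that share. In the member promoters the word began anywhere from 166 bp upstream to 33 bp downstream of the outermost TSS. The DRE was within 50 bp of the summit at 17.4% of bound members and 9.18% of all summits, and the E-box at 19.6% and 9.85%. AACGG was found at 19.6% and 19.3%, TTNGAA at 28.3% and 33.6%, TTANNTAA at 8.7% and 6.34%, and TATAAA at 13% and 10.6%. In counts, the DRE and E-box shares are 8 and 9 of 46 summits.

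Member summits lay close to the start of transcription. The median position was 39.5 bp upstream of the nearest TSS of the gene, against 72 bp upstream for all bound protein-coding genes. Of the 46, 40 summits were upstream, 5 downstream and 1 (ND-13B) at the TSS itself, and 35, or 76.1%, were within 100 bp, against 57.2% of all bound genes. Between 50 bp upstream and the TSS lay 47.8% of the member summits and 25.6% of all. The farthest were COX7AL2, described above, and ND-42, whose strongest summit was 341 bp upstream.

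**Figure D4:**
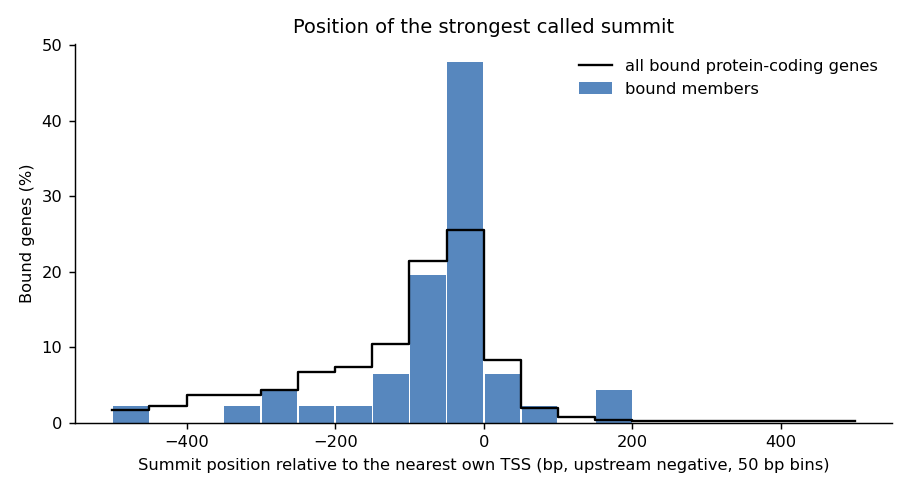
Position of the strongest called summit relative to the nearest TSS of the gene itself (horizontal axis, bp, upstream negative, bins of 50 bp) as percent of bound genes (vertical axis), with bars for the 46 bound members and a line for all 4966 bound protein-coding genes. The tallest bar, just upstream of the TSS, holds 47.8% of the members where the line is at 25.6%.

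Many of these promoters are shared with a neighbour. At 27 of the 46 bound members (58.7%) another gene had a TSS within 500 bp of the summit, and at 8 (17.4%) that TSS was nearer than the member's own; over all bound genes the shares were 58.1% and 27.7%. Which gene of such a pair the binding belongs to cannot be told from these lists. The neighbours include genes of the same organelle. ND-ASHI shared both of its called summits, 363 and 141, with Fum1, the fumarase of the citric acid cycle, which is transcribed in the opposite direction. ND-42 shared its summits, 202 and 109, with Cchl, the cytochrome c heme lyase, and ATPsynD shared its with mRpL55, a mitochondrial ribosomal protein. Others were unrelated in function, such as msl-2 of dosage compensation beside ND-PDSW and the germline helicase spn-E beside ND-23. No 2 members shared a summit with each other.

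A divergent promoter, with the TSS of another gene within 1000 bp and pointing away, was held by 45 of the 70 other members and 3 of the 20 duplicates. Of all protein-coding genes with such a promoter 57.8% were bound, and of those without it 21.1%. Among the other members the shares were 28 of 45 with one (62.2%) and 17 of 25 without (68%), so the share was not lower without a divergent neighbour, as it was over all genes. Those 17 include RFeSP, SdhB, ND-B14.5A, ND-B14.5B, UQCR-14, UQCR-C2, UQCR-Q and ATPsynC. Among the duplicates without a divergent neighbour, 1 of 17 was bound, and of the 3 with one none was.

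The duplicates also differed from the other members in their surroundings. Of the 20, 5 have no intron and 9 lie inside another gene, against 1 and 3 of the 70 other members. COX5BL and COX7CL begin just after the end of their parents COX5B and COX7C, and COX7AL lies near COX7A. Over all 13945 protein-coding genes 2126 have no intron (15.2%) and 1875 lie inside another gene, so for introns the other members (1.43%) are farther from that share than the duplicates (25%). Of all protein-coding genes without introns 18.4% were bound, and of the 6 members without introns, which are ND-24L, ND-51L1, ND-B14.5AL, SdhAL, UQCR-14L and COX6AL, none was. The part of gene structure, neighbours or promoter words in the low count of bound duplicates was not tested.

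The replicates gave like raw values at the bound members. The called set was itself selected by the irreproducible discovery rate from these same replicates. Likeness at the bound genes is therefore in part fixed by that selection, and the values only describe it. The ratio of replicate 1 to replicate 2 signal had a median of 1.01 over the 46, and 44 were within 2-fold, or 95.7%, against 97.5% of all bound genes with both values. The exceptions were ND-B15, with 94.8 and 34.2, and COX7A. Spearman's rho between the replicates across the 46 genes was 0.89, a description across genes that share the same libraries and not a correlation over independent samples, and it was 0.91 across all bound genes. Among the 6100 strongest peaks of each replicate, a summit within 100 bp of the called one was found in both for 39 of the 46 (84.8%), in replicate 1 for 43 and in replicate 2 for 42, and in neither for none. Over all bound genes 85.3% were matched in both.

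**Figure D5:**
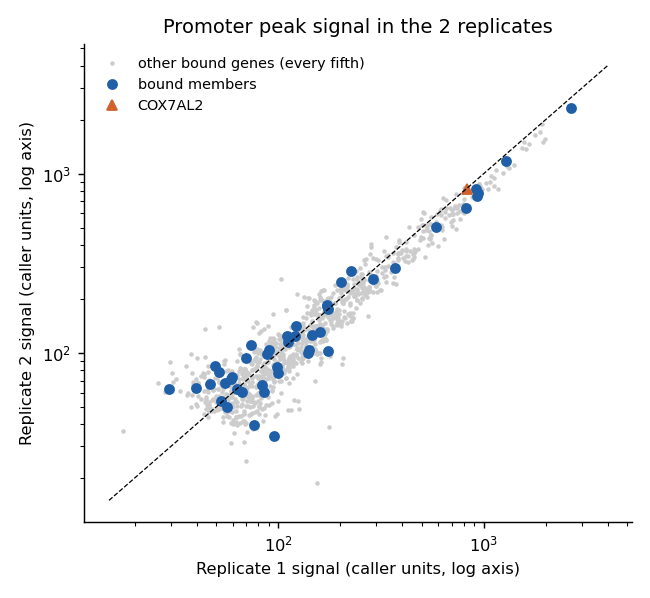
Signal at the promoter in replicate 1 (horizontal log axis) and replicate 2 (vertical log axis), in units of the peak caller, for bound members (blue circles), COX7AL2 (orange triangle) and 1 in 5 of the other bound genes (grey), with the line of equal values dashed. RFeSP is the highest blue point, at 2642 and 2315, and ND-B15, at 94.8 and 34.2, lies farthest below the line among the bound members.

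Other genes of mitochondrial respiration were read in the same way, as short lists of names of which those found in the annotation are counted. Their shares stand beside 35.6% of all protein-coding genes and 44.1% of the named ones. Of 8 genes under other names (9 listed), which are subunits, copies or the electron carrier cytochrome c, 6 were bound (75%). They were Cyt-c-d (290) and Cyt-c-p (278), the cytochromes c, blw (275), levy (232), ox (192) and sun (156). The strongest Cyt-c-d summit lay 334 bp downstream of its nearest TSS. The subunit cype and the copy Cyt-c1L had only uncalled peaks. Of 17 assembly factors (23 listed), among them the member Sdhaf3 described above, 9 were bound (52.9%), led by CIA30 (976), which acts in complex I assembly. That list also takes in Nfs1, IscU, fh, Fdx1 and Fdx2 of iron-sulfur cluster synthesis, of which fh and Fdx2 were bound. Of 15 citric acid cycle genes (17 listed) 12 were bound (80%), led by Scsalpha1 (1231), a succinyl-CoA synthetase subunit, with Idh3b (548) and mAcon1 (503) next. These genes include the pyruvate dehydrogenase subunits Pdhb, which was bound, and Pdha, which was not.

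Of 14 genes of mitochondrial DNA maintenance, transcription and biogenesis (15 listed) 11 were bound (78.6%, against 35.6% of all genes). They include the fusion and fission genes Marf and Drp1, which were bound, and Opa1, which was not. PolrMT, the mitochondrial RNA polymerase, had 1861 and the DNA polymerase PolG1 had 397. Of 11 carriers and import genes (13 listed) 3 were bound (27.3%), a count too small to set apart from the 35.6% of all genes, and 8 of the 11 (72.7%) had a summit in the complete pooled list, where 59.1% of all genes did. Among the 3 was porin, the outer membrane channel, with a signal of 3847. The adenine nucleotide carriers sesB and Ant2, which exchange the ATP that complex V makes, were not bound. Ccdc56 and mtTFB1 were read from the same summit (415), so they are not separate observations. The lists are short, no test of them was run, and they were written from general knowledge of the pathways with earlier results of the same data known.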

How the data were processed

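Chromatin immunoprecipitation and sequencing of Myb-GFP was read from 4 deposited peak lists on build dm6, which are the called set, the pooled list and a list for each of 2 replicates. Per the labels, chromatin was sheared by sonication to 200 to 800 bp. The signal in each list is the value the authors deposited for each peak, and it was used as it stood. Signals of the 2 replicates were set side by side without adjustment for depth. Per the deposited file listing, peaks were called with a control per replicate and on the pooled alignments, and the called set came from these by the irreproducible discovery rate. The called set was found to be the 6100 strongest peaks of the pooled list. No source used here gives the aligner, the caller or the threshold, and the depth of the samples is unknown.

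Summits were the interval start plus the offset. TSSs were those of all transcripts in Ensembl release 115 (BDGP6.54) on 6 arms, and sequence came from RefSeq, with windows holding over 30 bases of an annotated UTR left unprinted; all 90 members had the same symbol, start and end in the RefSeq gene table. Scripts ran in Python 3.11.15. The assignment of summits to genes was checked on simulated summits. Counts and medians were set beside those of all protein-coding genes, and no test was run. The members and lists were chosen with earlier results of these data known. By rule, every member was named, and replicate values were given for the 3 strongest members of each complex, every bound duplicate and the parents of the duplicates. Alternatives were the promoter window, the outermost TSS, stronger peaks, the complete pooled list, genes without a divergent promoter, each replicate alone and named genes as background. Narrower CHR words, the wider class of duplicates and summits nearest to the gene's own TSS were added after seeing the data.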

Additional observations from a re-analysis of the deposited data

How the results depend on the processing

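Of 109 values recomputed under other settings, 86 stayed near the reported value, which means within 1.5 times for counts and shares of bound genes, within the SD between the replicates for the median signal, and within the 95% binomial interval for shares of promoters with a word. The share of bound members rests on the cut in the peak list: with the 3050 stronger called peaks, 29 members were bound, 28 of them not duplicates, with 14 in complex I, 3 in complex IV and 5 in complex V, while 21.6% of all genes were bound and the median member signal was 349. With the complete pooled list 59.1% of all genes had a summit, and the counts rose to 10 in complex III, 12 in complex IV and 6 duplicates. Of the 42 members without a divergent promoter 18 were bound (42.9%), where 21.1% of all genes without one were. This value moved as a count, but it is taken from fewer genes, and the share over all members was 51.1%. The count of bound duplicates was 0 with a window of 250 bp or the outermost TSS, 2 with 1000 bp, and 1 to 2 when either replicate was left out. Of all genes 30.9% were bound with 250 bp, 33.7% with the outermost TSS and 38.9% with 1000 bp. Without replicate 2 the share of all genes was 36.5%, and without replicate 1 it was 33.9%. The median member signal was 216.8 with 250 bp or the outermost TSS and 220.5 with 1000 bp. Counting only summits whose nearest TSS was the gene's own, 39 members and 27.4% of all genes were bound. Under a promoter window of 250 bp on both sides of the TSS, 4 of the 7 word shares moved. No paired analysis was possible because the series has a single group. Unknown depth, a control that was not analysed here and the unstated signal scale limit every weak or absent peak to a statement about these lists.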
